A study of Mus musculus with 6 samples.

Results

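The genes described here are 9 receptors and receptor subunits through which macrophages and other myeloid cells sense antibody or receive inhibitory signals: Fcgr1, Fcgr2b, Fcgr3, Fcgr4, Fcer1g, Fcgrt, Pirb, Lilrb4a and Sirpa. They were taken by gene symbol from the mRNA count table. All 9 were found among its 17973 genes, and all 9 were among the 15808 mRNAs that passed a filter on low counts. RNA came from whole lungs of C57BL/6 mice. Lungs with silicosis (3 libraries, N129, N136 and N138) came from mice given silica once through the trachea, at a dose of 8 mg suspended in 40 µL of saline, and control lungs (3 libraries, C7, C8 and C9) are described by the series as saline samples. Lungs were frozen after 90 days. Neither age nor sex of the mice is stated in the labels, and they do not say whether each library is a different mouse, so the p-values rest on the spread among these libraries, which may be technical.

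Receptors for the constant part of IgG antibodies bind immune complexes. Fcgr1, Fcgr3 and Fcgr4 encode activating receptors that signal through the common gamma chain, the product of Fcer1g, which carries an activating motif (ITAM). Fcgr2b encodes the inhibitory IgG receptor, whose cytoplasmic motif (ITIM) recruits phosphatases. Pirb, Lilrb4a and Sirpa encode inhibitory receptors with ITIMs of their own, and Sirpa binds CD47, a signal against being engulfed. Fcgrt encodes the heavy chain of the neonatal Fc receptor, which rescues IgG and albumin from lysosomal breakdown and is made by endothelium and epithelium as well as by macrophages.

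The mRNA table held between 33698920 and 44000748 counts per library. Levels are given as CPM, counts per 1000000 of the library total after TMM adjustment, and fold changes are silicosis over control on the log2 scale with their standard error (SE). A gene was called where edgeR's quasi-likelihood test gave a Benjamini-Hochberg adjusted p, over all mRNAs tested, below 0.05. The lung markers Sftpc and Scgb1a1 were present in each library, at 7553 to 11749 and 3955 to 7622 CPM in silicosis libraries and at 8666 to 10175 and 9755 to 16836 CPM in control libraries.

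Of the 9 genes, 6 rose in silicosis, 1 fell and 2 did not pass. The 6 that rose were Lilrb4a, Fcgr2b, Fcgr1, Fcgr3, Pirb and Sirpa, the one that fell was Fcgrt, and the 2 that did not pass were Fcgr4 and Fcer1g. Over all mRNAs tested, 31.8% were called, 15.3% as higher and 16.5% as lower. The median log2 fold change of the 9 genes was 0.79, against 0.025 over all mRNAs tested. In 7 of the 9 genes the 3 silicosis libraries did not overlap with the 3 control libraries, against 47.7% of all mRNAs tested. Silicosis was the higher group in 6 of these and the lower in 1, against 23.7% and 24% of all mRNAs tested. Lilrb4a, Fcgr2b and Fcgr1 were called and at least 2-fold higher, as were 5.39% of all mRNAs tested. The genes were chosen with earlier results of these data known, so these counts describe them and are no test of the group. RNA from whole lung does not tell more receptor mRNA per cell from more cells that carry it.

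**Figure D1:**
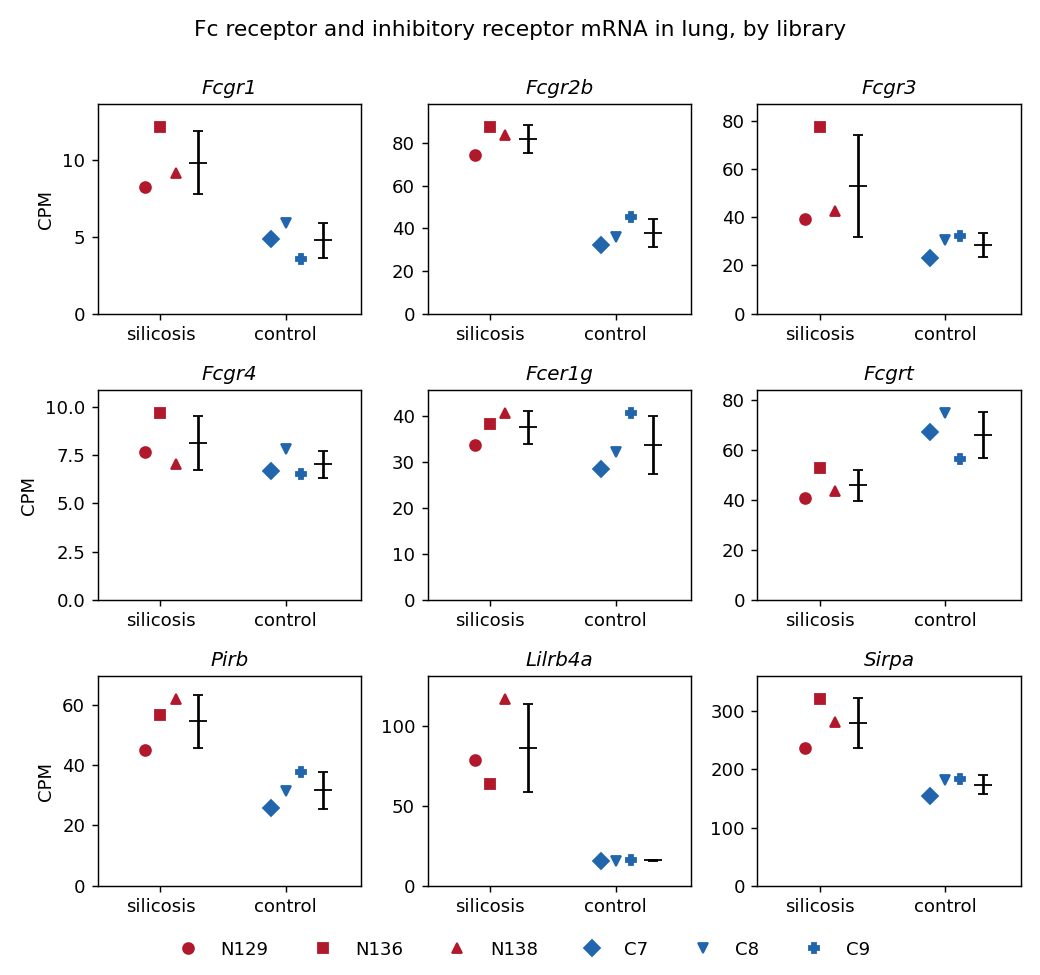
CPM (vertical axis, starting at 0) of each of the 9 genes in the 3 silicosis libraries (red, left) and the 3 control libraries (blue, right), with a symbol for each library and the mean with SD as a black bar. The groups are apart for 7 genes and overlap for Fcgr4 and Fcer1g, and the Fcgr3 value of N136, 77.5 CPM, lies above that of the other silicosis libraries.

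Among the activating IgG receptors, Fcgr1 and Fcgr3 rose and Fcgr4 did not pass. Fcgr1, the high-affinity receptor that can hold single IgG molecules, had 8.22, 12.2 and 9.13 CPM in silicosis libraries N129, N136 and N138, against 4.84, 5.89 and 3.58 CPM in control libraries C7, C8 and C9. All silicosis libraries lay above all control libraries, and the means were 9.83 ± 2.06 and 4.77 ± 1.16 CPM in silicosis and control (SD, n = 3 each). The log2 fold change of Fcgr1 was 1.04 (SE 0.23, edgeR adjusted p = 0.00874).

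Fcgr3, a low-affinity receptor for immune complexes, had 39.3, 77.5 and 42.6 CPM in N129, N136 and N138, against 22.9, 30.4 and 32.4 CPM in C7, C8 and C9. The groups did not overlap, but N136 stood well above the other silicosis libraries. Its log2 fold change was 0.90 (SE 0.25, edgeR adjusted p = 0.0244), and 0.51 without N136. The call ended without C7 (adjusted p = 0.0878) and without C8 (adjusted p = 0.0586). Fcgr3 shares 12.7% of its 50-base windows with Fcgr2b transcripts, so part of its reads can be uncertain. The summed level of Fcgr2b and Fcgr3 was 135 ± 26.7 CPM in silicosis and 66.5 ± 11.3 CPM in control (SD, n = 3 each).

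Fcgr4, a receptor for IgG2a and IgG2b in mice, had 7.67, 9.70 and 7.04 CPM in N129, N136 and N138, against 6.71, 7.85 and 6.55 CPM in C7, C8 and C9. These ranges overlap, and the log2 fold change of 0.21 (SE 0.18) did not pass (edgeR adjusted p = 0.399), with a 95% interval of -0.19 to 0.61. With each library left out the Fcgr4 value ran between 0.058, without N136, and 0.31, without N138. Fcer1g, the gamma chain, had 33.7, 38.1 and 40.6 CPM in N129, N136 and N138, against 28.4, 32.1 and 40.6 CPM in C7, C8 and C9. C9 was level with the highest silicosis library. The log2 fold change of Fcer1g was 0.15 (SE 0.14, edgeR adjusted p = 0.448), with a 95% interval of -0.17 to 0.48, so for both genes a rise of 2-fold, a log2 change of 1, lies outside the interval. With each library left out the Fcer1g value ran between 0.042, without C7, and 0.31, without C9.

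The inhibitory IgG receptor rose. Fcgr2b, which also serves on B cells, had 74.6, 87.7 and 83.9 CPM in N129, N136 and N138, against 32.3, 36.0 and 45.4 CPM in C7, C8 and C9. The lowest silicosis value exceeded the highest control value, and the spread was similar in both groups, at 82.0 ± 6.71 CPM against 37.9 ± 6.72 CPM in control (SD, n = 3 each). Its log2 fold change was 1.11 (SE 0.13, edgeR adjusted p = 0.000479), and it ranged from 1.01 to 1.26 when each library was left out in turn. Fcgr2b shares 12.3% of its windows with transcripts of other genes, Cplx2 and Rab3c among them, and overlaps Gm38204 on the opposite strand, so part of its reads can be uncertain too. B cell markers are given beside it because B cells also carry this receptor: 1 of 5 rose and 4 did not pass, and their summed level was 150 to 338 CPM in silicosis and 160 to 293 CPM in control. Their part in the Fcgr2b result was not tested.

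**Figure D2:**
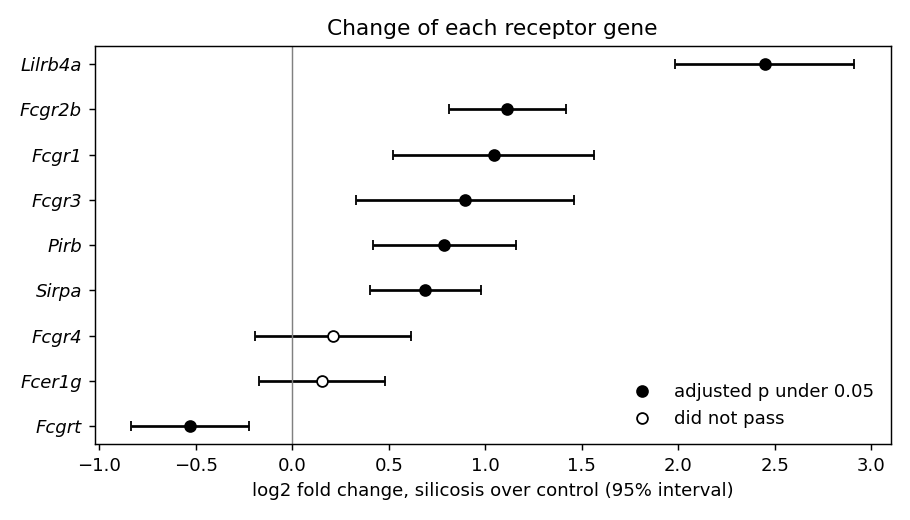
Log2 fold change, silicosis over control (horizontal axis), of the 9 genes in order of size, with 95% intervals from the edgeR fit and filled symbols for genes with an adjusted p under 0.05. Lilrb4a stands apart at 2.45, 5 genes lie between 0.69 and 1.11, the intervals of Fcgr4 and Fcer1g include 0, and Fcgrt lies at -0.53.

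The promoters of these receptor genes are shown because macrophage IgG receptor genes are known for short promoters read by the myeloid factor PU.1. Sequences from RefSeq (build GRCm38.p6) were found for 7 of the 9 genes, with none for Lilrb4a and Sirpa. The 150 bases before the start site are given 5′ to 3′ on the gene's strand, and capitals mark GAGGAA, a core of PU.1 sites, or its reverse complement. They lie at chr3:96293970-96294119 (minus strand) for Fcgr1, chr1:170976072-170976221 (minus) for Fcgr2b, chr1:171059395-171059544 (minus) for Fcgr3, chr1:171018776-171018925 (plus) for Fcgr4 and chr7:3720383-3720532 (minus) for Pirb. The windows of Fcer1g and Fcgrt, which hold no GAGGAA on either strand, were searched but are not printed.
Fcgr1: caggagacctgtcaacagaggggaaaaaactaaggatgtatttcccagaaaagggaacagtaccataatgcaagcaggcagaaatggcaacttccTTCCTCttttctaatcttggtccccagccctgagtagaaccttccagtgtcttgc
Fcgr2b: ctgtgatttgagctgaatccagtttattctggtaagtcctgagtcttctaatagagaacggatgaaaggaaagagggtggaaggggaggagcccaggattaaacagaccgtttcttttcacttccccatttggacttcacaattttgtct
Fcgr3: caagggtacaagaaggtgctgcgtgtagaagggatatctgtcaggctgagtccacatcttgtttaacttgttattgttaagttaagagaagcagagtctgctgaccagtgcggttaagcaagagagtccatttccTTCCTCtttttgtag
Fcgr4: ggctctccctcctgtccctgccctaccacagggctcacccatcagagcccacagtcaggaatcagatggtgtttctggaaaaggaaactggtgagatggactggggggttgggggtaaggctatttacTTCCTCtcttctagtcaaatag
Pirb: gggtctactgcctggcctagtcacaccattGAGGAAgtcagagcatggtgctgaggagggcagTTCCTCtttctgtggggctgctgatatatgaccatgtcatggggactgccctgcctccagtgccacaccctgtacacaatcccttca
On either strand, GAGGAA was in the window of 4 of the 7 genes, Fcgr1, Fcgr3, Fcgr4 and Pirb, and in 14.5% of all 32851 promoters in windows of the same length. The match began 55 bases before the start of Fcgr1 and 22 before that of Fcgr4. For Fcgr3, RefSeq lists a pair of starts that share the same match, which begins 15 bases before the start shown. Pirb had matches 120 and 87 bases before its start. TTCNNNGAA, the GAS site of STAT factors, was in the Fcgr1 window, 109 bases before the start, and in 4.09% of all promoters. An interferon-stimulated response motif was in the Fcgr4 window, 73 bases before the start, and in 1.59% of all. TGANTCA, the AP-1 site, and TATAAA, the TATA box, were in none of the 7 windows, against 4.24% and 7.57% of all promoters. None of the matches overlapped. The 4 genes with GAGGAA include Fcgr4, which did not pass, and the 3 without it include Fcgr2b, which rose. A match describes these letters and is not evidence of binding. A part of PU.1 in the changes of these genes was not tested.

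The balance between activating and inhibitory IgG receptors was compared within each library as a ratio of counts, which does not depend on library scaling. The summed counts of Fcgr1, Fcgr3 and Fcgr4 over those of Fcgr2b were 0.739, 1.13 and 0.701 in N129, N136 and N138, against 1.07, 1.23 and 0.937 in C7, C8 and C9. N136 lay within the control range and the other silicosis libraries below it. The mean log2 ratio was lower in silicosis by 0.35 (SE 0.25), expressed as -0.35 silicosis minus control, with an exact two-sided permutation p of 0.3. It was -0.57 without N136 and -0.23 without N138. With 3 against 3 libraries this test cannot give a p below 0.1. Fcgr3 held most of the activating counts in each library, with 1506 in N129, against 315 for Fcgr1 and 294 for Fcgr4. The ratio therefore mostly follows Fcgr3, which shares part of its windows with Fcgr2b.

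Of the single receptors, Fcgr4 moved most against Fcgr2b. The ratio of Fcgr4 to Fcgr2b counts was 0.103, 0.111 and 0.0839 in N129, N136 and N138, against 0.208, 0.218 and 0.144 in C7, C8 and C9. All silicosis ratios lay below all control ratios, a log2 difference of -0.92 (SE 0.22, exact permutation p = 0.1, the smallest this design allows). The ratios of Fcgr1 and Fcgr3 to Fcgr2b overlapped between the groups, with log2 differences of -0.07 and -0.28 (exact permutation p = 0.9 and 0.4). The gamma chain was also set against the receptors it serves. Fcer1g counts over the summed counts of Fcgr1, Fcgr3 and Fcgr4 were 0.611, 0.384 and 0.692 in N129, N136 and N138, against 0.825, 0.726 and 0.956 in C7, C8 and C9. All silicosis ratios lay below all control ratios. This log2 difference was -0.61 (SE 0.28, exact permutation p = 0.1), and it was -0.35 without N136. In all, 36 ratios were compared, and no Benjamini-Hochberg adjusted p of these exact permutation tests was below 0.189.

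**Figure D3:**
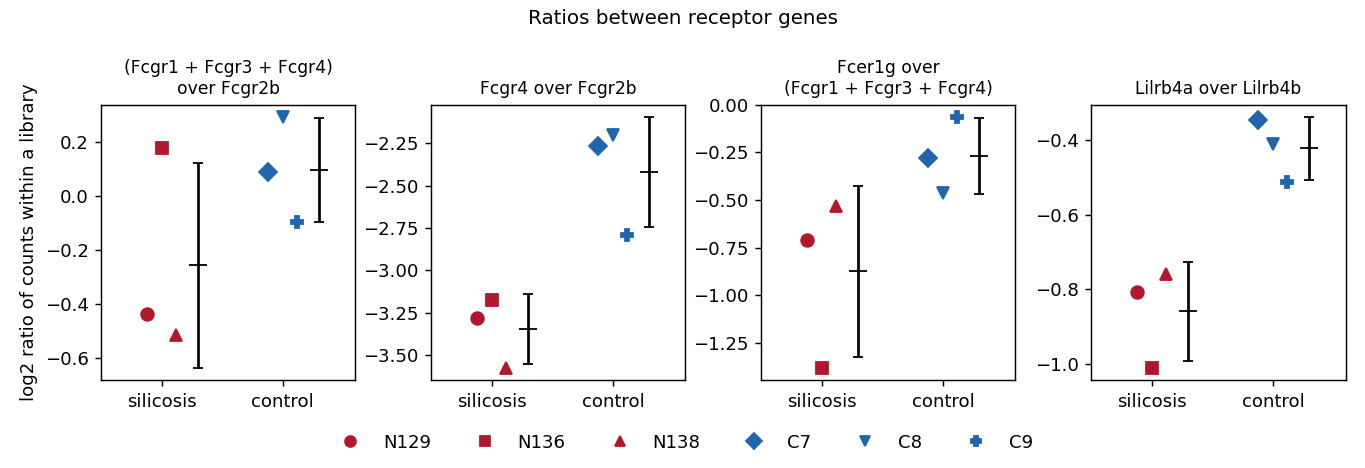
Log2 ratios of counts within each library (vertical axis, a separate scale in each panel) in silicosis (red, left) and control (blue, right), with a symbol for each library and the mean with SD in black. The groups overlap for the activating receptors over Fcgr2b and are apart, with silicosis lower, for Fcgr4 over Fcgr2b, Fcer1g over the activating receptors and Lilrb4a over Lilrb4b.

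Each of the 3 inhibitory receptors outside the IgG family rose, and Lilrb4a had the largest fold change of the 9 genes. Lilrb4a, a receptor of macrophages and mast cells that restrains activation, had 78.6, 63.4 and 117 CPM in N129, N136 and N138, against 15.6, 15.4 and 16.4 CPM in C7, C8 and C9. The control values lay close together and the lowest silicosis library was far above them. The log2 fold change was 2.45 (SE 0.21, edgeR adjusted p = 9.54e-05), a fold of 5.46, higher than that of 98.5% of all mRNAs tested. It was also the one gene of the 9 called against a 2-fold minimum (edgeR glmTreat adjusted p = 0.00162).

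Lilrb4a shares 43.7% of its windows with other genes' transcripts, among them one that GENCODE M21 names Lilr4b. The count table holds no such name and lists a close relative as Lilrb4b, which lacks the inhibitory motifs. Its largest window partner is Gm49339, with 29.8% of windows, which it also overlaps on the same strand. Lilrb4a also overlaps Gm40645 on the opposite strand, so its counts are uncertain. Lilrb4b rose as well, to 137, 128 and 198 CPM in N129, N136 and N138, against 19.9, 20.5 and 23.4 CPM in C7, C8 and C9. The summed level of both genes, which does not depend on how reads were split between them, was 241 ± 65.6 CPM in silicosis and 37.1 ± 2.34 CPM in control (SD, n = 3 each), 6.50-fold higher with no overlap. Reads shared with Gm49339 or Gm40645 can still affect this sum. Within libraries the ratio of Lilrb4a to Lilrb4b was 0.572, 0.496 and 0.590 in N129, N136 and N138, against 0.787, 0.752 and 0.702 in C7, C8 and C9, so Lilrb4b made up more of the pair's counts in each silicosis library (exact permutation p = 0.1). This ratio does depend on how shared reads were assigned.

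Pirb, which binds MHC class I and dampens myeloid and B cell signalling through the phosphatase SHP-1, had 45.0, 56.7 and 62.0 CPM in N129, N136 and N138, against 25.7, 31.3 and 37.7 CPM in C7, C8 and C9. The groups did not overlap, and the log2 fold change was 0.79 (SE 0.16, edgeR adjusted p = 0.00652). Pirb shares 37.6% of its windows with other genes, among them Pira2 of the activating Pira family, so its counts are uncertain. Summed with Pira2, Pira12 and Pira13 the level was 66.5 ± 10.6 CPM in silicosis and 38.2 ± 8.02 CPM in control (SD, n = 3 each).

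Sirpa, the CD47 receptor, had 236, 321 and 282 CPM in N129, N136 and N138, against 154, 182 and 184 CPM in C7, C8 and C9. All silicosis libraries were above all control libraries, and the log2 fold change was 0.69 (SE 0.13, edgeR adjusted p = 0.00378). None of its windows is shared with other genes. Its ligand gene Cd47 did not pass (log2 fold change -0.13), although all silicosis libraries lay below all control libraries, with 521, 550 and 525 CPM in N129, N136 and N138, against 597, 599 and 555 CPM in C7, C8 and C9.

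Fcgrt was the single gene of the 9 that fell. It had 40.8, 52.8 and 43.5 CPM in N129, N136 and N138, against 66.9, 74.7 and 56.3 CPM in C7, C8 and C9. The groups did not overlap, and N136 was the silicosis library closest to the control range. The log2 fold change was -0.53 (SE 0.14, edgeR adjusted p = 0.0167). The call ended without C7 (adjusted p = 0.0534), without C8 (0.0687) and without N129 (0.0650). Fcgrt overlaps Gm45669 on the opposite strand, and reads of the overlap cannot be told apart. B2m, the light chain of the same receptor, did not pass, with 832, 970 and 476 CPM in N129, N136 and N138, against 916, 791 and 943 CPM in C7, C8 and C9. Of 5 endothelial markers 4 fell, with summed levels of 1462 to 1495 CPM in silicosis and 2778 to 3040 CPM in control, and of 5 lung epithelial markers 3 fell, with 15732 to 18708 CPM in silicosis and 22192 to 30306 CPM in control. The epithelial markers that fell were Scgb1a1, Ager and Sftpb (log2 fold change -1.18, -1.05 and -0.33). Sftpc and Foxj1 did not pass (-0.05 and 0.07). Scgb1a1 and Sftpc held most of the epithelial sum, and Scgb1a1 had a mean of 5541 CPM in silicosis and 12529 CPM in control. The part of endothelium and epithelium in the Fcgrt result was not tested.

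Levels were compared between genes per length, as CPM per kilobase of exons in GENCODE M21. In silicosis the order of the mean level per kilobase was Sirpa (57.0 ± 8.65), Fcer1g (42.9 ± 4.03), Fcgr3 (30.6 ± 12.2), Fcgrt (21.7 ± 3.0), Lilrb4a (16.5 ± 5.29), Fcgr2b (14.2 ± 1.16), Pirb (12.2 ± 1.95), Fcgr4 (6.48 ± 1.11) and Fcgr1 (3.80 ± 0.797; SD, n = 3 each). In control it was Fcer1g (38.6 ± 7.19), Sirpa (35.3 ± 3.37), Fcgrt (31.4 ± 4.38), Fcgr3 (16.5 ± 2.89), Pirb (7.06 ± 1.34), Fcgr2b (6.55 ± 1.16), Fcgr4 (5.60 ± 0.565), Lilrb4a (3.03 ± 0.0974) and Fcgr1 (1.84 ± 0.447; SD, n = 3 each). Lilrb4a held the fifth place in silicosis and the eighth in control. In silicosis the library ranges of Fcer1g, Fcgr3, Fcgrt and Lilrb4a each overlapped with the next in order, as did those of Lilrb4a, Fcgr2b and Pirb, while Sirpa lay above Fcer1g in all libraries. In control Fcer1g, Sirpa and Fcgrt overlapped, as did Pirb, Fcgr2b and Fcgr4. With the longest transcript as the length, Fcgr2b and Pirb changed places in control, and Fcgr2b came before Lilrb4a in silicosis.

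The myeloid cells that carry these receptors also left marks in the same libraries. Of 6 macrophage markers 4 rose and 1 fell, and their summed level was 5506 to 9949 CPM in silicosis and 3223 to 3803 CPM in control. Lyz2 alone made up 90.1% to 94.1% of that sum in silicosis and 85.5% to 87.8% in control. Ratios over all macrophage markers therefore mostly follow Lyz2. Without Lyz2 the sum was 449 to 583 CPM in silicosis and 421 to 475 CPM in control. Ptprc, the pan-leukocyte CD45, had 625, 522 and 540 CPM in N129, N136 and N138, against 339, 339 and 424 CPM in C7, C8 and C9. Of the other marker lists, 4 of 7 monocyte and interstitial macrophage genes rose (266 to 329 CPM summed in silicosis, 178 to 214 CPM in control), as did 3 of 6 neutrophil genes (229 to 358 CPM in silicosis, 84.0 to 149 CPM in control). Of 6 alveolar macrophage markers 1 rose and 2 fell (366 to 645 CPM in silicosis, 357 to 452 CPM in control). Chil3, which did not pass, held most of that sum. It had 299, 290 and 576 CPM in N129, N136 and N138, against 292, 363 and 277 CPM in C7, C8 and C9. The markers that fell were Siglecf (log2 fold change -1.38) and Krt79 (-1.26), and Fabp4 rose (1.80). All 5 NK cell markers fell (25.3 to 37.5 CPM in silicosis, 73.5 to 78.9 CPM in control). Of the 6 dendritic cell markers 1 fell (124 to 158 CPM in silicosis, 151 to 180 CPM in control), as did 1 of the 4 mast cell and basophil markers tested (213 to 295 CPM for all 5 in silicosis, 326 to 337 CPM in control), and the 4 T cell markers did not pass (38.8 to 95.3 CPM in silicosis, 54.1 to 76.0 CPM in control). Kit was the mast cell and basophil marker that fell, and it held most of the sum of that list. It had 207, 291 and 252 CPM in N129, N136 and N138, against 328, 321 and 329 CPM in C7, C8 and C9. Cpa3, Cma1 and Tpsb2 did not pass. No marker was at 0 in all libraries of a group. The part of cell numbers in the receptor changes was not tested.

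Set against macrophage markers, the direction for the summed receptors changed with the marker used. The summed counts of the 8 genes other than Fcgrt over the macrophage marker sum gave a log2 difference of -0.13, silicosis minus control (SE 0.25, exact permutation p = 0.7). The difference was 0.67 without Lyz2 among the markers (exact permutation p = 0.1), a choice made after the data were seen, and 0.26 over Ptprc (exact permutation p = 0.4). Sirpa held the largest part of the receptor sum, with means of 280 CPM in silicosis and 173 CPM in control. With a mean of logs in place of sums, the difference over all macrophage markers was 0.50 (exact permutation p = 0.1). Lilrb4a was higher in silicosis over each of the 3 denominators, by 1.40, 2.19 and 1.78 on the log2 scale over all macrophage markers, over those without Lyz2 and over Ptprc, with no overlap between groups (exact permutation p = 0.1 each). Fcgrt was lower over each, with -1.53, -0.74 and -1.15 (exact permutation p = 0.1 each). Fcgr2b was higher over Ptprc by 0.51 and over the markers without Lyz2 by 0.92 (exact permutation p = 0.1 each), but by 0.12 over all macrophage markers, where the groups overlapped. The other 4 genes that rose, Fcgr1, Fcgr3, Pirb and Sirpa, overlapped between groups over Ptprc, with 0.43, 0.22, 0.17 and 0.064 (exact permutation p = 0.5, 0.8, 0.5 and 1). They also overlapped over all macrophage markers, with 0.048, -0.16, -0.21 and -0.32 (exact permutation p = 0.8, 0.4, 0.4 and 0.3). Over the markers without Lyz2 these 4 were higher with no overlap, by 0.85, 0.63, 0.59 and 0.47 (exact permutation p = 0.1 each). Fcgr4, which did not pass, had -0.42 over Ptprc, -0.80 over all macrophage markers and -0.0071 over those without Lyz2 (exact permutation p = 0.2, 0.1 and 1). Fcer1g was lower over Ptprc by 0.45, given as -0.45, and over all macrophage markers at -0.84 (exact permutation p = 0.1 each), and overlapped at -0.04 over the markers without Lyz2.

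Other genes of these pathways were read from lists, beside the 31.8% of all mRNAs that were called. Of 14 genes that carry the activating signal, 7 rose and 7 did not pass, with a median log2 fold change of 0.38. Vav1, an exchange factor that drives the cytoskeleton during uptake, had 65.0, 73.2 and 64.9 CPM in N129, N136 and N138, against 30.3, 33.2 and 36.2 CPM in C7, C8 and C9 (log2 fold change 1.03, SE 0.10). The adaptor Lat2 rose by 1.11 (SE 0.16), the kinase Prkcd by 0.57 (SE 0.08) and the kinase Btk by 0.69 (SE 0.15). Lat2 shares 54.2% of its windows with Rfc2, which it overlaps on the opposite strand, and its counts are uncertain. Without C7 or without C8 the count that rose was 4.

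Of 8 enzymes and adaptors of inhibition, 4 rose and 4 did not pass, with a median log2 fold change of 0.19. The adaptors Dok2, Dok1 and Dok3, which restrain kinase signalling, rose by 0.64 (SE 0.13), 0.62 (SE 0.14) and 0.54 (SE 0.14), and the ubiquitin ligase Cbl by 0.30 (SE 0.09). The phosphatases that ITIMs recruit did not pass: Ptpn6 (SHP-1), Ptpn11 (SHP-2) and Inpp5d (SHIP-1), singled out after their values were seen, had log2 fold changes of -0.07, -0.14 and 0.047. Without C7 or without C8 the count that rose was 2.

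Of 15 other inhibitory receptors of myeloid cells, 10 rose, 1 fell and 4 did not pass, a share of 73.3% called, with a median of 0.79. Apart from Lilrb4b, Cd300lf, a receptor for membrane lipids of dying cells, had 49.0, 59.9 and 67.0 CPM in N129, N136 and N138, against 11.3, 13.8 and 14.8 CPM in C7, C8 and C9 (log2 fold change 2.14, SE 0.15). Cd200r1, the receptor of CD200, rose by 1.63 (SE 0.18) and the sialic acid receptor Cd33 by 1.24 (SE 0.15). Pecam1, named here because it alone fell, had a log2 fold change of -0.71 and is also an endothelial gene. The list therefore holds Lilrb4b, which lacks ITIMs, among the genes that rose, and an endothelial gene as the one that fell.

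Activating partners of these receptor families also rose in part. Of 15 tested paired activating receptors and their adaptor, 9 rose and 6 did not pass, a share of 60.0% called, with a median of 0.80. Tyrobp, the ITAM adaptor that serves many of them, had 66.5, 109 and 68.9 CPM in N129, N136 and N138, against 49.5, 54.8 and 58.2 CPM in C7, C8 and C9 (log2 fold change 0.59). Trem2, a lipid receptor of macrophages, rose by 3.36 (SE 0.21), Clec5a by 2.94 (SE 0.14), Trem1, an amplifier of inflammation, by 2.28 (SE 0.19) and Trem3 by 1.46 (SE 0.27). Tyrobp is named after its values were seen. The count that rose was 5 without C7 and 5 without N136.

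Of 11 tested Fc receptors outside the 9 genes, 3 rose and 8 did not pass, or 27.3% called. Pigr, which carries IgA and IgM across epithelium, had 332, 575 and 179 CPM in N129, N136 and N138, against 58.6, 60.6 and 133 CPM in C7, C8 and C9 (log2 fold change 2.11, SE 0.44). Fcrlb, an intracellular relative of Fc receptors, rose by 2.46 (SE 0.35) and Fcamr, a receptor for IgA and IgM, by 1.22 (SE 0.24). The IgE receptor chains Fcer1a and Ms4a2 were at 0.167 to 0.459 and 0.261 to 0.940 CPM in silicosis and at 0.235 to 0.359 and 0.479 to 0.757 CPM in control. The count that rose was 5 without N138.

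Of 12 tested ligands and partners of the receptors, 2 rose, 1 fell and 9 did not pass, or 25.0% called. Angptl2, a secreted ligand of Pirb, fell to 52.2, 56.6 and 70.6 CPM in N129, N136 and N138, against 106, 102 and 118 CPM in C7, C8 and C9 (log2 fold change -0.86, SE 0.13). Itgav, a subunit of the integrin that binds Lilrb4a, rose by 0.56 (SE 0.09) and Fn1, fibronectin, by 0.53 (SE 0.11). The MHC class I genes H2-K1 and H2-D1, whose products Pirb binds, did not pass, at 826 to 1690 and 1031 to 1922 CPM in silicosis and at 750 to 935 and 1088 to 1212 CPM in control. Without N138 the count called was 5.

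**Figure D4:**
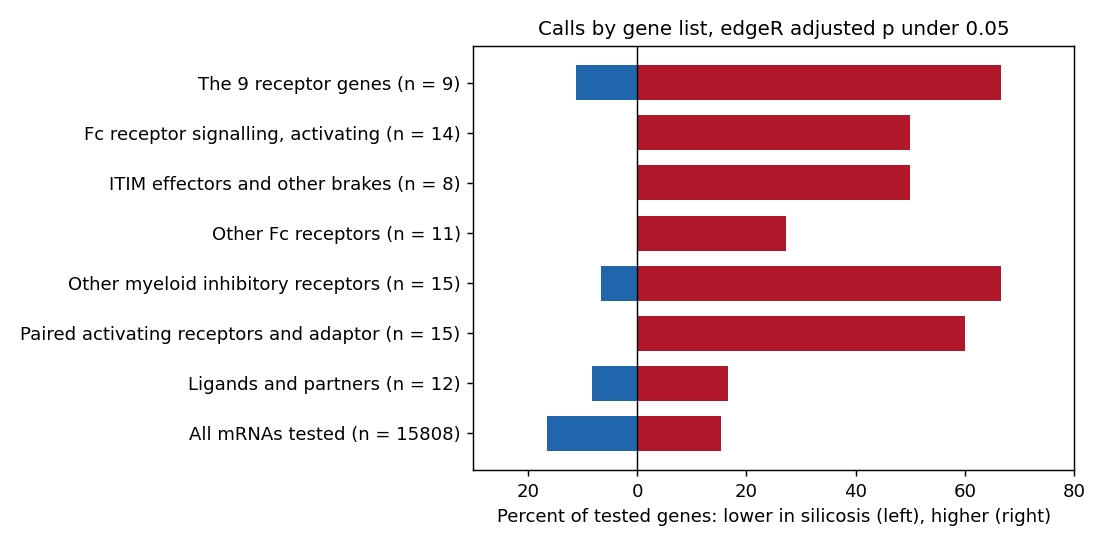
Percent of the tested genes of each list called higher (red, right of 0) or lower (blue, left of 0) in silicosis by edgeR at an adjusted p under 0.05, with the number tested beside each name and all 15808 mRNAs tested as the last bar. The 9 receptor genes, the other inhibitory receptors and the paired activating receptors have the longest bars to the right, and the other Fc receptors and the ligands have the shortest of the gene lists.

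Genes with the most similar pattern were found for each of the 7 genes called, as the smallest root mean square distance between the 6 log2 CPM values, centred on the control mean, over 12469 candidates. For Fcgr3 they were Nos2 and Cd68, a lysosomal macrophage protein, at 0.0832 and 0.119 log2 units, and both were also highest in N136. For Fcgr2b they were Cd84, a leukocyte adhesion receptor, and Prr16 at 0.0389 and 0.0610. For Pirb they were Fgr, a myeloid Src-family kinase, and Clec12a, an inhibitory lectin, at 0.0665 and 0.0819. Sirpa was closest to Tmem26 and Sema4a at 0.0555 and 0.0681, Fcgr1 to Rnh1 and Atp6ap2 at 0.0734 and 0.0849, and Fcgrt to Tspan8 and Armcx4 at 0.0479 and 0.0496. Lilrb4a had no such close neighbour: its nearest, Fst and Mefv, were at 0.195 and 0.197. Since candidates that changed by a like amount are close by construction, the distance describes these 6 libraries.

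The authors' deposited table gave the same directions for the 9 genes, with log2 fold changes of 2.44 for Lilrb4a, 1.11 for Fcgr2b, 1.04 for Fcgr1 and -0.54 for Fcgrt. In the authors' deposited table the adjusted p was under 0.05 for the same 7 genes, with 0.00129 for Fcgr3 and 0.00256 for Fcgrt, and it was 0.482 for Fcgr4 and 0.531 for Fcer1g. DESeq2 run here on the same 6 libraries gave the same log2 fold changes for the 9 genes, so the deposited values are not independent evidence.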

How the data were processed

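Total RNA from whole lungs was measured in 6 libraries, 3 silicosis and 3 control, grouped by the labels. The deposited mRNA table holds raw whole-number counts per gene, without normalisation by the authors. Their comparison table holds log2 fold changes, silicosis over control, and adjusted p-values, as deposited. The submitters' processing notes list DESeq2 1.36.0, featureCounts 2.0.0, HISAT2, Bowtie2, Trimmomatic 0.39 and the build GRCm39, but not which step each served. Neither the strand setting nor the annotation is stated there. The lncRNA and circRNA tables were not used here.

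Counts were fitted with edgeR 4.0.16 in R 4.3.3 (filterByExpr, TMM, two-sided quasi-likelihood F test, Benjamini-Hochberg over 15808 mRNAs, threshold 0.05). The SE is the log2 fold change divided by the square root of F, and 95% intervals use the total degrees of freedom of the fit, residual plus prior. Ratios used exact two-sided permutation tests. Libraries of a group were distinct, with chi-square per degree of freedom of 15.0 to 79.0 for pairs. On simulated counts of 15808 genes, edgeR found 82% of the 100 genes simulated at 2-fold. At 4-fold it found 99% of 100. False calls made up 7.18% of edgeR's calls, 17.3% of those of DESeq2 and 5.26% of those of limma-voom. No other genes were changed in the simulation, a far smaller share than the 31.8% called in the data.

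The 9 genes, the 6 pathway lists and the 11 marker lists were chosen with earlier results of these data known. Named from each pathway list are the called genes with the lowest p, up to 4. Others were singled out, among them Ptpn6, Ptpn11, Inpp5d, Pecam1, Tyrobp, Cd47, B2m, Fcer1a, Ms4a2, H2-K1 and H2-D1. Shared reads were assessed on GENCODE M21 transcripts (GRCm38, an earlier build than GRCm39) as 50-base windows every 5 bases of the longest transcript also found in another gene's transcripts on either strand. Without a stated strand setting, overlapping antisense genes cannot be told apart. Among the genes named by lowest p, Btk, Dok2, Cbl, Fcamr, Cd300lf, Trem1, Angptl2, Itgav and Fn1 also overlap genes on the opposite strand. On the same strand, Fcgr3 overlaps Mir6546, Fcgr4 overlaps Gm26110 and Cbl overlaps 5830462O15Rik. Promoters are from RefSeq, GRCm38.p6. Alternatives tried were a 2-fold minimum, leaving out each library, limma-voom (limma 3.58.1), DESeq2 1.42.0 or its size factors alone, no filter on low counts, and other forms of the ratios.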

Additional observations from a re-analysis of the deposited data

How the results depend on the processing

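The 7 calls among the 9 genes were kept with DESeq2 size factors, with no filter, with DESeq2 and with limma-voom, and no direction turned in these or when a library was left out; 5 to 7 of the 9 were called when each library was left out. Against a 2-fold minimum (edgeR glmTreat) 312 of all mRNAs and 1 of the 9 genes were called, and 0 activating signalling genes, 0 brakes, 1 other Fc receptor, 3 other inhibitory receptors, 3 paired activating receptors and 0 ligands; at an unadjusted p under 0.05 glmTreat also gave 0 for the signalling, brake and ligand lists, where DESeq2 without a minimum called 7, 4 and 4. DESeq2 called 5 other Fc receptors. With each library left out, the called genes numbered 3484 to 5213 of all mRNAs, 4 to 7 of the activating signalling list, 2 to 4 of the brakes, 3 to 5 of the other Fc receptors, 10 to 11 of the other inhibitory receptors, 5 to 8 of the paired receptors and 3 to 5 of the ligands; fewer libraries also leave less to estimate the spread. The log2 difference of the 8 genes over macrophage markers turned from -0.13 to 0.50 as a mean of logs, 0.26 over Ptprc and 0.67 without Lyz2 (chosen after the data were seen), and lay between -0.33 and 0.072 with a library left out, the positive value being without N136. Lyz2 held most of the marker sum; the cause was not tested otherwise. No paired analysis was possible because the groups share no replicate numbers. Counting error was largest for Fcgr1, with 315 to 530 counts in silicosis and 137 to 246 in control, and Fcgr4, with 253 to 423 in silicosis and 251 to 328 in control.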
